A study of Mus musculus with 4 samples.

Results

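The genes described here are 8 transcription factor genes of the cerebellar rhombic lip, the dorsal germinal zone from which excitatory cerebellar neurons arise: Pax6, Zic1, Zic2, Zic4, Zic5, Barhl1, Barhl2 and Tlx3. They were chosen by name, and all 8 were found among the 32285 genes of the files. Cerebella were taken from mice at stage E14.5, a day of embryonic development, and cells were sorted for the red fluorescent protein tdTomato. All groups carried Atoh1-Cre/+ and R26LSL-tdT/+, so that tdTomato marks cells in which the Atoh1 gene's Cre driver was or had been active, together with their descendants. The 2 control libraries carried nothing else, and the 2 En1/2 CKO (conditional knockout) libraries also carried En1lox/lox and En2lox/lox, in which the same Cre removes the Engrailed genes in that lineage only. Each library was made from pooled animals by droplet-based 3′ single-cell RNA sequencing, and the labels name 2 replicate experiments without saying which libraries belong to which.

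Pax6 is a paired-box and homeobox factor of the rhombic lip and of granule cell precursors. The Zic genes encode zinc-finger factors of dorsal neural progenitors, and joint loss of Zic1 and Zic4 is known to leave the cerebellum small. Barhl1 and Barhl2 are homeobox genes that act downstream of Atoh1, the basic helix-loop-helix gene that founds the lineage. Tlx3 is a homeobox gene best known for favouring glutamatergic over GABAergic neuron fate in the dorsal spinal cord.

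Cells were kept with 500 or more genes, 1000 or more unique molecular identifiers (UMIs, each standing for 1 captured RNA molecule) and 10% or fewer mitochondrial UMIs. This left 2911 and 3931 cells in control replicates 1 and 2 and 2007 and 3697 in CKO replicates 1 and 2, with median UMIs per cell of 2734, 2122, 5352 and 5544. The files hold 14998150 to 33709450 UMIs per library. Of the barcodes, 73 occurred in more than 1 library, 18 of them among the kept cells. Kept cells fell into 6 exclusive classes by whether at least 1 UMI of a class gene was seen. Gad-detected cells had Gad1 or Gad2, the enzymes of GABA synthesis, and Atoh1-detected cells had Atoh1 and no Gad. The remaining cells had both Neurod1, a gene of differentiating granule cells, and Meis2, a marker of excitatory cerebellar nuclei neurons, or Neurod1 only, or Meis2 only, or none of these. A class is a detection class, not a cell type: a cell with few UMIs can miss a gene it expresses. Control replicate 2 stood apart, with 1674 Meis2-only cells and 385 Atoh1-detected cells against 348 and 900 in CKO replicate 1.

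The deletion was checked first. En2 stood at 136 and 167 CPM (its UMIs as counts per 1e6 UMIs) over all kept cells of the controls and at 29.0 and 19.8 CPM in the CKO libraries, and the groups did not overlap. The CKO effect on En2 in Neurod1-only cells was -2.68 on the log2 scale (SE 0.22, adjusted p = 0.0031, edgeR quasi-likelihood test over all genes). By the same test it was -2.80 in Neurod1-and-Meis2 cells (adjusted p = 0.0065) and -2.27 in Meis2-only cells (adjusted p = 0.0205). In Atoh1-detected cells (-2.75, adjusted p = 0.0937) and Gad-detected cells (-1.56, adjusted p = 0.0515) En2 was lower but did not pass the threshold of 0.05. En1 stood at 238 and 382 CPM in the controls and at 150 and 253 CPM in the CKO libraries, which overlap. The position of the deleted part of En1 relative to the counted 3′ end is not given in the sources used here, so the En1 counts do not check the deletion.

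By position the Zic genes form 2 pairs. In GENCODE M21 (GRCm38) Zic1 lies at chr9:91358058-91365810 on the minus strand and Zic4 at chr9:91362413-91389348 on the plus strand, so that they overlap and their starts are 3397 bases apart. Zic2 lies at chr14:122475435-122479852 (plus) and Zic5 at chr14:122456795-122465677 (minus), with starts 9758 bases apart. Whether reads were counted by strand is not given in the sources used here, and without it reads from the overlap of Zic1 and Zic4 cannot be told apart. The overlap lies at the starts of both genes, away from their 3′ ends. The RefSeq start of Zic4, at 91368972, lies outside Zic1. Pax6 lies at chr2:105668900-105697364 (plus), with 50426 UMIs against 85 of its antisense gene Pax6os1. Barhl1 lies at chr2:28907679-28916668, Barhl2 at chr5:106452523-106458166 and Tlx3 at chr11:33200752-33203589, all on the minus strand.

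The promoters of Pax6, Barhl1 and Tlx3 are printed because the differences between classes turn on these genes. They are the 250 bases before the RefSeq start site in GRCm38.p6, on the strand of the gene. Capitals mark CCAAT (or ATTGG), the CCAAT box, and CAGCTG, an E-box of the kind bound by basic helix-loop-helix proteins.
Pax6, chr2:105668646-105668895, plus strand: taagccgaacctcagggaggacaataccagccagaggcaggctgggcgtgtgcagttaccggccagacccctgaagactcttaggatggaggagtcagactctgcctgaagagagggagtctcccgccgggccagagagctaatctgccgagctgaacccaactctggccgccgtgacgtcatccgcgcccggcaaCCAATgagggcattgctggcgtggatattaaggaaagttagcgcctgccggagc
Barhl1, chr2:28916669-28916918, minus strand: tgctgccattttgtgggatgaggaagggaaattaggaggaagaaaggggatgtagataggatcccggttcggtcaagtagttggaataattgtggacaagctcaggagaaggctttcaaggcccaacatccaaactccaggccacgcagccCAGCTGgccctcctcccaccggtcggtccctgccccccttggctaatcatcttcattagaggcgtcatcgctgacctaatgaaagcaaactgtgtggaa
Tlx3, chr11:33203589-33203838, minus strand: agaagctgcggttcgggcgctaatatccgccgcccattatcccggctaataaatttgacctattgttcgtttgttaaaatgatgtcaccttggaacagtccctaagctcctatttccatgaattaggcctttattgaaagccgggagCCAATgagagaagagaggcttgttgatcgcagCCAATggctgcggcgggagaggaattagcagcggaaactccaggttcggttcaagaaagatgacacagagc

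A set of 4 motifs were searched on both strands in the 9 windows that RefSeq gives for 7 of the genes. CAGCTG was found in both Barhl1 windows, at -99 and, in the window of the second start site, at -15. It occurs in 13% of 32851 windows of all genes. CCAAT was found in Pax6 at -54, in Zic1 at -205 and -121 and in Tlx3 at -103 and -71, and it occurs in 33.8% of all windows. CATCTG, the E-box form preferred by Atoh1, and TAATTA, a homeodomain core, were in none of the 9 windows, and occur in 14.4% and 4.84% of all windows. The motifs do not overlap each other in these windows. A match is a string of letters, not a bound site.

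Levels are given as CPM, the UMIs of a gene over all UMIs of a class in a library, scaled as above and without further normalization, in the order control replicates 1 and 2, then CKO replicates 1 and 2. They are counts of 3′ ends and are not compared between genes.

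Pax6 had its highest mean in Neurod1-only cells. Its level there was 1034, 917, 867 and 940 CPM (mean 940 ± 70.1, SD, n = 4 libraries). It was 816 ± 195 CPM in cells with none of the class genes, 673 ± 135 in Neurod1-and-Meis2 cells, 582 ± 106 in Atoh1-detected cells, 418 ± 194 in Gad-detected cells and 337 ± 176 in Meis2-only cells. In CKO replicate 2 alone the cells with none of the class genes were higher than Neurod1-only cells, at 1078 CPM. Neighbours in the order of means differ by less than the larger of their SDs. The level in Atoh1-detected cells was 682, 456, 534 and 656 CPM. All 4 Neurod1-only values lie above all 4 Atoh1-detected values, and the controls and the CKO libraries overlap in both classes.

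The 4 Zic genes had a flatter distribution. Zic1 was 842, 644, 685 and 998 CPM in Atoh1-detected cells, 1045, 809, 735 and 1063 CPM in Neurod1-only cells and 675, 466, 637 and 801 CPM in Meis2-only cells. CKO replicate 2 was the highest library for Zic1 in all 3 classes, and the ranges of the classes overlap. Zic2 was 323 to 400 CPM in Neurod1-only cells and 157 to 282 CPM in Meis2-only cells, with no overlap. Zic5 was 356, 296, 410 and 425 CPM in Neurod1-only cells and 198, 108, 184 and 224 CPM in Meis2-only cells, again with no overlap. Zic4 was 255 to 308 CPM in Neurod1-only cells and 132 to 290 CPM in Meis2-only cells, where CKO replicate 2 alone exceeded 161 CPM.

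Barhl1 had its highest mean of the 6 classes in Atoh1-detected cells. Its level there was 463, 320, 533 and 505 CPM (mean 455 ± 94.6). It was 367, 227, 411 and 407 CPM in Neurod1-only cells and 202, 127, 162 and 308 CPM in Meis2-only cells. Control replicate 2 was the lowest library in each of these classes. Its paralogue Barhl2 was scarce, with 7.30, 11.4, 10.0 and 7.50 CPM in Atoh1-detected cells, resting on 55, 18, 155 and 164 UMIs. In Meis2-only cells Barhl2 rested on 2, 15, 12 and 13 UMIs.

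**Figure D1:**
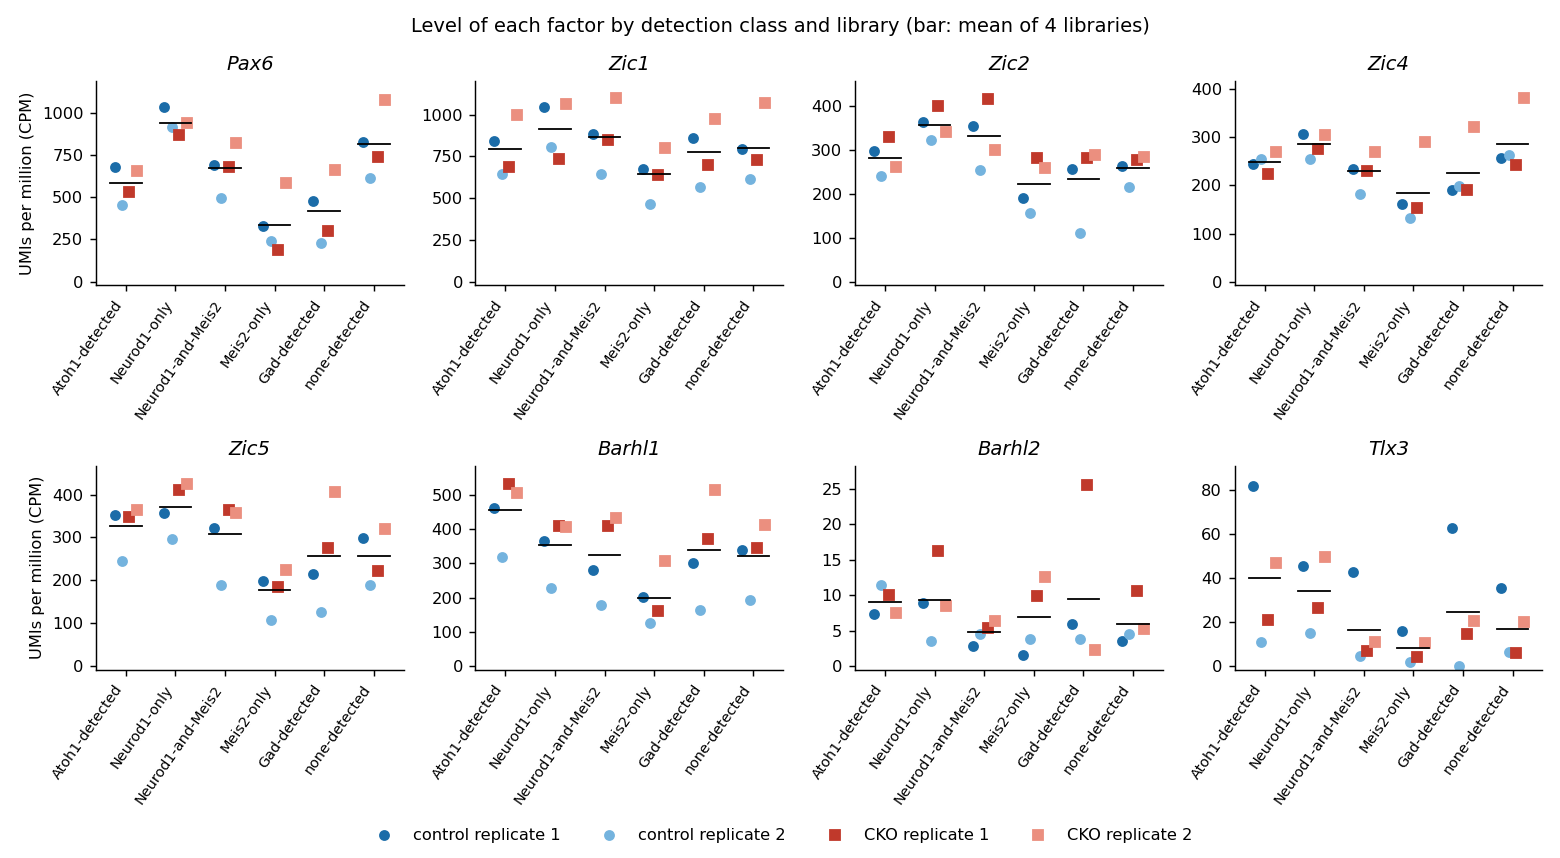
Level of each of the 8 genes in CPM (vertical axes, linear, each panel with its own scale) in the 6 detection classes. Each symbol is 1 library, circles for control and squares for CKO, and the bar is the mean of 4 libraries. Over the 4 libraries the mean of Pax6 was highest in Neurod1-only cells (940 CPM) and that of Barhl1 in Atoh1-detected cells (455 CPM), and Meis2-only cells had the lowest mean for 7 of the genes, Barhl2 being the exception.

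Tlx3 differed widely between libraries of the same genotype. In Atoh1-detected cells it was 82.1, 10.8, 21.2 and 47.1 CPM. Control replicate 1 and CKO replicate 2 were the high libraries, and control replicate 2 and CKO replicate 1 the low ones. The same libraries were the higher pair in Neurod1-only cells, at 45.7 and 49.9 CPM against 15.3 and 26.6 CPM. Otx2, a homeobox gene listed here among unipolar brush cell genes, stood at 39.4, 7.62, 33.6 and 50.03 CPM in Atoh1-detected cells. It was again lowest in control replicate 2, but CKO replicate 1 was closer to the high libraries.

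Within the Atoh1-detected cells of each library the level of Tlx3 was higher with Neurod1 than without it. Without a Neurod1 UMI it was 34.3, 4.88, 8.02 and 15.2 CPM, and with one it was 95.9, 17.2, 25.4 and 56.2 CPM. The ratio was 2.79 to 3.69 and was above 1 in 4 of 4 libraries. The log2 difference was 1.75 (SE 0.12, adjusted p = 1.45e-08, edgeR with the library as block), a comparison added after these levels had been seen. Pax6 rose by 0.44 (SE 0.08, adjusted p = 0.000995) and Zic5 by 0.29 (SE 0.07, adjusted p = 0.0104) in the same edgeR fit, and the other 5 did not pass the threshold of 0.05. Against this count of 3 members stands a background of 9.8% of 12690 genes called. Eomes, the gene of unipolar brush cell precursors, rose by 2.06, Otx2 by 1.40 and Ntf3, a neurotrophin gene, by 1.55 on the log2 scale, while Wls, a gene of Wnt secretion in the rhombic lip, fell by 0.69 and Pax3, a paired-box gene of dorsal progenitors, by 0.48. These are the 3 genes that rose and the 2 that fell of 16 tested on the list of partners, targets and relatives of the 8 factors, whose median was -0.17. Of 6 tested unipolar brush cell genes 2 rose and 1 fell, with a median of -0.30. In the same comparison 6 of 6 tested cell-cycle genes and 4 of 10 dissociation-response genes rose, and 9 of 16 excitatory nuclei neuron genes fell. Cells with Neurod1 were also deeper, with median UMIs of 11034, 3503, 18793 and 13785 against 3989, 2538, 12066 and 10028.5. The part of the marker genes in the Tlx3 difference was not tested. With each cell thinned to 2000 UMIs before it was classed, the Tlx3 difference was 0.98 (adjusted p = 2.8e-06, edgeR) and that of Zic5 lost its call (adjusted p = 0.591). Zic5 and Pax6 also lost it without CKO replicate 1 (adjusted p = 0.261 and 0.0651, edgeR).

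**Figure D2:**
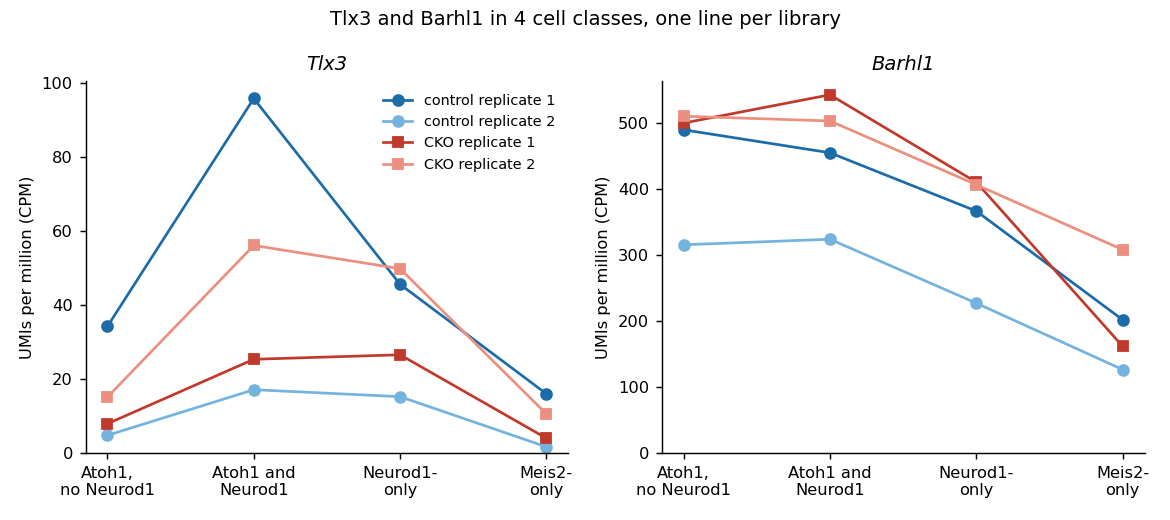
Level of Tlx3 (left) and Barhl1 (right) in CPM on linear axes in 4 cell classes, with 1 line per library (circles control, squares CKO). Tlx3 was higher in Atoh1-detected cells with Neurod1 than in those without it in all 4 libraries, by ratios of 2.79 to 3.69, while Barhl1 stood at 324 to 543 and 316 to 510 CPM in these classes.

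Neurod1-only and Atoh1-detected cells differed for 3 of the 8 genes (43.3% of 12261 genes were called in this comparison). Pax6 was higher in Neurod1-only cells by 0.65 (SE 0.09, adjusted p = 7.69e-06, edgeR with the library as block), by a ratio of 1.43 to 2.01 within the libraries. Zic2 was higher by 0.29 (SE 0.08, adjusted p = 0.00527). Barhl1 fell by 0.42 on the log2 scale (SE 0.08, adjusted p = 0.000216), and was lower in 4 of 4 libraries. Zic1, Zic4, Zic5, Barhl2 and Tlx3 did not pass, with log2 differences of -0.24 to 0.16. With classes from cells thinned to 2000 UMIs, 7 of the 8 genes were called, and Tlx3 turned from -0.24 to 0.35 (adjusted p = 0.00153, edgeR). In the control libraries alone the Tlx3 difference was -0.69 (adjusted p = 0.00543) and the call of Zic2 was lost (adjusted p = 0.101). Neurod1-only cells lack Atoh1 and Meis2 by definition, so the differences of these genes (-13.8 and -13.1) were fixed in advance. All 6 cell-cycle genes fell, 8 of 16 nuclei neuron genes fell and 2 rose, and 10 of 12 neuron maturation genes rose and 1 fell. Median UMIs were 2479.5, 2011, 2986 and 3533 against 5775, 2746, 16414.5 and 12726 in Atoh1-detected cells. The part of these in the differences was not tested.

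Between Meis2-only and Neurod1-only cells 7 of the 8 genes fell, in a comparison that uses the Neurod1-only cells again, against a background of 28.2% of 10717 genes called in either direction and 14.4% called lower. Tlx3 fell by 2.21 on the log2 scale (SE 0.26, adjusted p = 1.42e-05, edgeR with the library as block) and Pax6 by 1.67 (SE 0.19, adjusted p = 1.16e-05). Zic5 fell by 1.16 (SE 0.13, adjusted p = 1.04e-05), Barhl1 by 0.92 (SE 0.14, adjusted p = 0.000235), Zic2 by 0.78 (SE 0.13, adjusted p = 0.000381), Zic4 by 0.75 (SE 0.14, adjusted p = 0.00112) and Zic1 by 0.58 (SE 0.13, adjusted p = 0.00461). Each of these 7 was lower in 4 of 4 libraries. Barhl2 had a log2 difference of -0.51 (SE 0.40, adjusted p = 0.370) and was lower in 2 of 4 libraries. The median of the 8 log2 differences was -0.85, and that of all genes tested was -0.01.

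CKO replicate 2 had the smallest Pax6 difference, with 586 CPM in its Meis2-only cells against 188 to 330 CPM in the other libraries. It also had the lowest Meis2 level in that class, 1209 CPM against 1339 to 1856 CPM. When Meis2-only cells were split by their Meis2 UMIs, Pax6 was 632 ± 224 CPM in cells with 1 UMI, 389 ± 243 with 2 and 165 ± 60.6 with 3 or more. Zic1 was 735 ± 140, 694 ± 130 and 588 ± 128 CPM in the same cells, so its means differed by less than 1 SD between neighbouring bins. With 3 or more Meis2 UMIs required, an alternative chosen after seeing the data, the Pax6 difference was -2.59 and 7 of the 8 genes kept their calls. In cells with 4000 or more UMIs and 5% or fewer mitochondrial UMIs, Zic1 (adjusted p = 0.144, edgeR) and Zic4 (adjusted p = 0.0707) lost theirs, and Zic1 did so without control replicate 1 (adjusted p = 0.0662).

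**Figure D3:**
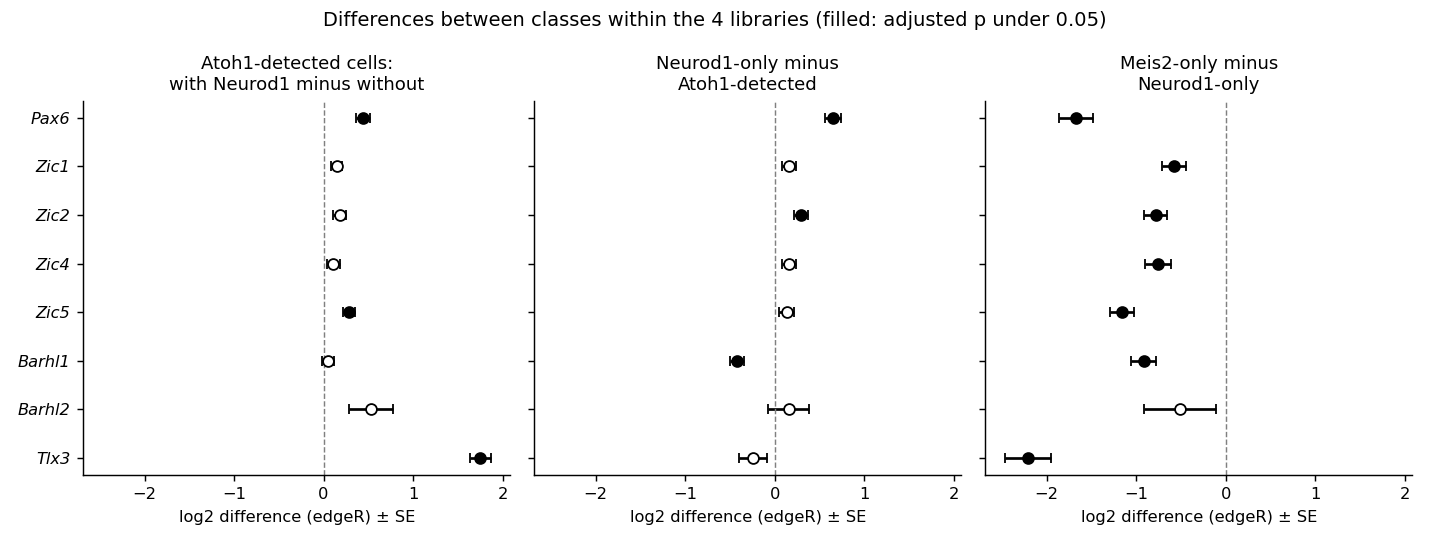
Log2 difference (horizontal axes, edgeR, error bars ± SE) of the 8 genes between classes compared within the 4 libraries. Filled symbols have an adjusted p under 0.05: 3 genes in the left panel, 3 in the middle panel and 7 in the right panel, where all 8 lie below 0.

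The marker lists ran with these classes. Of 16 tested genes of an excitatory nuclei neuron list, 14 rose in Meis2-only cells and 0 fell, with Lhx9 higher by 2.92 and Lhx2 by 3.09 on the log2 scale. Of 22 tested granule lineage genes 1 rose and 12 fell. Meis2 is on the nuclei list and Neurod1 on the granule list. Both define these classes, so their differences of 14.4 and -13.8 on the log2 scale were fixed in advance. A list of partners, targets and relatives of the 8 factors had 16 genes tested, of which 2 rose and 6 fell. The risers were Slc17a6, the vesicular glutamate transporter of early excitatory neurons, by 1.78 (SE 0.17), and the co-repressor gene Tle4 by 1.54 (SE 0.13). Otx2 fell by 2.61 (SE 0.36), Eomes by 1.75 (SE 0.21), Ntf3 by 1.72 (SE 0.51), the netrin receptor gene Unc5c by 1.13 (SE 0.20), the chromatin remodeller gene Chd7 by 0.62 (SE 0.13) and Nhlh1 by 0.55 (SE 0.12). Slc17a6 is also on the nuclei list, and Chd7 and Nhlh1 on the granule list. All 6 cell-cycle genes and 6 of 9 dissociation-response genes fell as well, and their part in the values of the 8 factors was not tested.

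Pax6 was also seen in a larger share of Neurod1-only than of Meis2-only cells. After thinning to 2000 UMIs and classing the thinned cells anew, which left out 2726 control and 1521 CKO cells, a Pax6 UMI was seen in 79.6, 70.5, 73.4 and 76.7% of Neurod1-only cells and in 32.1, 26.6, 27.3 and 47.5% of Meis2-only cells. Unthinned, the shares were 81.9, 69.1, 80.8 and 90.9% and 41.4, 27.3, 33.0 and 50.4%. Tlx3 was seen in 8.21, 1.38, 4.89 and 8.15% of thinned Neurod1-only cells and in 2.29, 0.612, 0.313 and 3.65% of thinned Meis2-only cells. As a background, 18 barcodes had 20% or more of their UMIs from erythroid genes, at a median of 4858 UMIs. They were 4 barcodes of control replicate 1, 11 of control replicate 2 and 3 of CKO replicate 1, with none from CKO replicate 2, for which they give no background. Pax6 was seen in 2 of them (11.1%, 95% Wilson interval 3.10 to 32.8%), Zic1 in 8 (44.4%, 24.6 to 66.3%), Tlx3 in 1 (5.56%, 0.988 to 25.8%) and Barhl2 in 0, which allows a share of up to 16.7%. No Tlx3 share given above exceeded the upper bound of the erythroid barcodes, so its shares are not read as expression. The Pax6 shares in Neurod1-only cells all lay above the bound for Pax6. In thinned Meis2-only cells only that of CKO replicate 2 did, but the erythroid barcodes were not thinned. Unthinned, the Meis2-only shares of control replicate 1 (41.4%) and of CKO replicates 1 and 2 (33.0 and 50.4%) lay above the bound. That of control replicate 2 (27.3%) lay below it. Because the bound rests on 18 barcodes, Pax6 shares below it are read neither as expression nor as its absence. Intervals and this limit cover counting error only.

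Gad-detected cells numbered 50 to 87 per library and were a mixed class. Besides Gad2 at 149 to 418 CPM they held Atoh1 at 61.3 to 223 CPM. Against Meis2-only cells Barhl1 was higher in them by 0.78 (SE 0.17, adjusted p = 0.00785, edgeR with the library as block) and Tlx3 by 1.52 (SE 0.46, adjusted p = 0.0430), against 9.53% of 9525 genes called, and the other 5 of 7 tested genes did not pass. Tlx3 was at 0 of 260998 UMIs in control replicate 2. Both calls were lost without control replicate 1, without CKO replicate 1 and without CKO replicate 2 (0 members called each time). Among Atoh1-detected cells, those with 2 or more UMIs of 6 cell-cycle genes had more Zic4 by 0.22 (SE 0.08, adjusted p = 0.0437, edgeR) and more Zic5 by 0.26 (SE 0.09, adjusted p = 0.0403) than the rest, against 33.9% of 12668 genes called. DESeq2 called 0 of the 8 genes there, and 0 were called without control replicate 1 or without CKO replicate 1.

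Between CKO and control libraries none of the 8 genes passed the threshold. The number called was 0 of 8 tested in Atoh1-detected, Neurod1-only, Neurod1-and-Meis2 and Meis2-only cells and 0 of 6 in Gad-detected cells, where Barhl2 and Tlx3 were too low to test (edgeR quasi-likelihood test, 2 against 2 libraries). The background was as thin: 0.0222% of 13500, 0.0188% of 10638, 0.0181% of 11071, 0.0199% of 10066 and 0.401% of 6736 genes were called in these classes. In simulated data the same fits called 31, 47, 44, 43 and 20% of 2-fold changes, so the lack of a call is not read as the lack of a change. The simulated counts had only the average spread of genes of like level, so fewer changes may be called in the real libraries. En2, a deleted gene, was lower by 2.75 on the log2 scale in Atoh1-detected cells and was not called there (adjusted p = 0.0937, edgeR). At an unadjusted p under 0.05 edgeR gave 0, 1, 2, 2 and 2 of the genes. Among all genes tested in these classes it gave 542, 1420, 1611, 421 and 724. DESeq2 called Barhl1 in Neurod1-and-Meis2 cells and 0 of the genes elsewhere. Of the 38 fitted log2 fold changes 35 were above 0 and 3 below, and the classes come from the same 4 libraries.

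Barhl1 lay above both controls in both CKO libraries in 4 of the 5 classes, which come from the same libraries. In a single class 10.1 to 18.5% of all genes did so on the CPM scale. In Neurod1-and-Meis2 cells it stood at 280 and 179 CPM in the controls and at 411 and 434 CPM in the CKO libraries, and the groups did not overlap. The log2 fold change was 1.00 (SE 0.25, adjusted p = 0.234, edgeR), with an adjusted p of 0.0104 by DESeq2 and of 0.00866 in edgeR without the low-count filter. Over the alternatives the value was 0.73 to 1.34, the lowest without control replicate 2. The Barhl1 fold change was 0.50 (SE 0.28, adjusted p = 0.971) in Atoh1-detected, 0.54 (SE 0.24, adjusted p = 0.361) in Neurod1-only and 0.95 (SE 0.36, adjusted p = 0.313) in Gad-detected cells, and in each the CKO values lay above both controls. In Meis2-only cells the groups overlapped, and its value of 0.49 (SE 0.32, adjusted p = 1.00) became -0.01 without CKO replicate 2.

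The CKO effect on Zic5 was 0.44 on the log2 scale in Neurod1-only cells (SE 0.20, adjusted p = 0.379, edgeR), 0.62 in Neurod1-and-Meis2 cells (SE 0.27, adjusted p = 0.339) and 1.02 in Gad-detected cells (SE 0.36, adjusted p = 0.258). The CKO values lay above both controls in these 3 classes, as did those of 17.1 to 18.5% of all genes in each. Zic2 in Meis2-only cells stood at 191 and 157 CPM in the controls and at 282 and 260 CPM in the CKO libraries (log2 fold change 0.61, SE 0.22, adjusted p = 1.00). Pax6 ranged from -0.02 in Neurod1-only cells to 0.49 in Gad-detected cells, and Zic1 and Zic4 from 0.05 to 0.56. Barhl2 had the largest value, 1.77 (SE 0.58, adjusted p = 0.911) in Meis2-only cells, on 17 control and 25 CKO UMIs. Tlx3 was -1.16 (SE 0.83, adjusted p = 0.556) in Neurod1-and-Meis2 cells, and became 1.11 without control replicate 1.

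Groups that did not overlap, all with the CKO above, numbered 1, 2, 3 and 2 of 8 and 3 of 6 genes in the 5 classes on the CPM scale, against 36.6%, 46%, 47.3%, 30.2% and 42.3% of all genes in either direction and 10.1%, 17.1%, 17.1%, 17.2% and 18.5% with the CKO above. With TMM-scaled CPM, in which a factor per library centres the bulk of genes, the numbers were 2, 4, 6, 2 and 3, against 35.2%, 45.7%, 46.6%, 30.4% and 42% of all genes in either direction and 17.3%, 24%, 24.5%, 14.4% and 20.9% with the CKO above. Shares of thinned cells, classed anew, did not all go this way. Gad-detected cells then numbered 19 to 37 a library. Their mean Pax6 share was 31.4% in controls and 12.2% in the CKO, and that of Zic4 34.1 and 23.6%, without overlap. The other genes overlapped there, with Zic2 and Barhl2 higher in the CKO and the rest lower. Barhl1 shares were above both controls in Neurod1-only and Neurod1-and-Meis2 cells and overlapped in Atoh1-detected cells. The difference of the CKO effect between Meis2-only and Neurod1-only cells passed for 0 of the 8 genes (edgeR interaction test, 0 also at an unadjusted p under 0.05 and 0 by DESeq2), against 0.224% of 10717 genes. At the unadjusted threshold 990 of all genes passed.

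**Figure D4:**
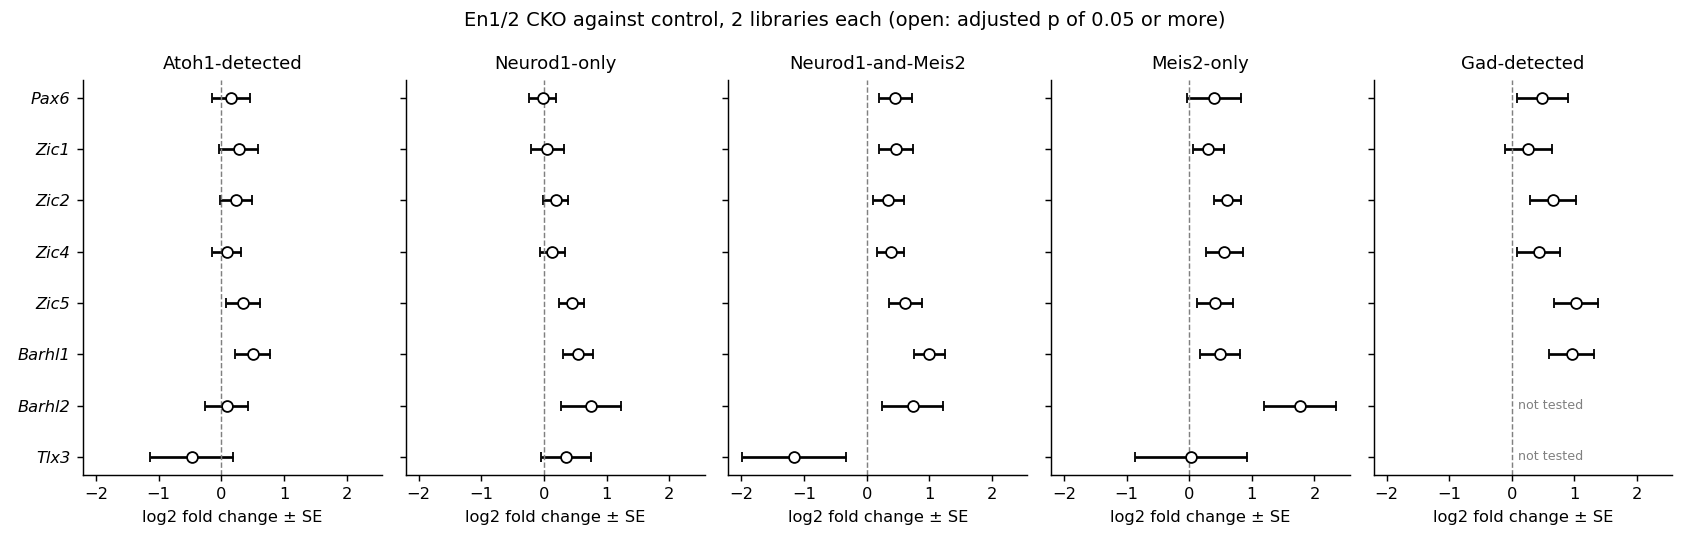
Log2 fold change of the 8 genes in CKO against control libraries (horizontal axes, edgeR, error bars ± SE, 2 libraries against 2) in 5 detection classes. All symbols are open because 0 genes had an adjusted p under 0.05, and 35 of the 38 fitted values lie above 0.

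Marker levels differed between the libraries, and some of them between the groups. In Atoh1-detected cells the excitatory nuclei neuron list summed to 845 and 2478 CPM in the controls. It summed to 1331 and 749 CPM in the CKO libraries, so that the groups overlapped. Its median log2 fold change was -0.29 to -0.72 over the 5 classes. The granule lineage list had medians of 0.09 to 0.31, and its sums overlapped between the groups in every class. The glia and ventricular zone list was above both controls in both CKO libraries in all 5 classes, with 913 to 991 CPM against 423 to 609 CPM in Meis2-only cells and medians of 0.15 to 1.02. Dissociation-response genes were above in Neurod1-and-Meis2 cells (1200.1 to 1527 CPM against 711 to 1171 CPM) and in Gad-detected cells (1022 to 1329.8 CPM against 682 to 931 CPM). In Gad-detected cells, where Zic5 and Barhl1 had values of 1.02 and 0.95, the cell-cycle genes summed to 1474 to 2407 CPM in the CKO and to 329.5 to 667 CPM in the controls, and 3 of 6 were called higher. The partners and targets list summed to 1498 to 1682 CPM in the CKO against 1702 to 1704 CPM in control Atoh1-detected cells. It was also below both controls in Neurod1-only cells (1787 to 1849 against 1966 to 2227 CPM) and Neurod1-and-Meis2 cells (1654 to 1680 against 1850 to 2035 CPM). In Meis2-only and Gad-detected cells its groups overlapped, and its medians were -0.15 to 0.16. No gene of the nuclei, granule, glia and ventricular zone, dissociation-response or partners and targets lists was called in the 5 classes (edgeR). The summed haemoglobin and other erythroid genes were 1911 and 1586 CPM in the control Atoh1-detected cells and 12.6 and 2.10 CPM in the CKO cells, and Hba-a1, Hba-a2 and Hbb-bt were the 3 genes called there. The GABAergic list summed to 42.6 and 66.0 CPM in the controls and to 23.2 and 25.8 CPM in the CKO libraries in these cells, with Gad1 and Gad2 at 0 by the definition of the class. It was below both controls in both CKO libraries in all 5 classes. In Gad-detected cells, which Gad1 and Gad2 define, it summed to 478 to 560 CPM in the CKO and to 781 to 1686 CPM in the controls. Of its 7 tested genes there, 1 was called, Lhx1, lower by 2.05 (adjusted p = 0.0333, edgeR). The part of these in the values of the 8 factors was not tested.

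In thinned cells the number of the 8 genes seen per cell followed the same classes. Its mean was 3.68, 2.95, 3.57 and 3.64 in Neurod1-only cells, 3.40, 2.55, 3.13 and 3.44 in Atoh1-detected cells and 2.09, 1.66, 2.06 and 2.61 in Meis2-only cells. Control replicate 2 was the lowest library in these 3 classes. Meis2-only cells with none of the 8 genes made up 12.3, 21.2, 11.3 and 7.76% of their class. Within that class Pax6 was seen together with Barhl1 1.27 to 1.49 times as often as the product of their shares, together with Zic5 1.24 to 1.78 times and together with Zic4 1.22 to 1.69 times. These ratios rest on 29 to 91 cells with both genes in a library and are descriptions.

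Across the 24 library-by-class sums, centred within each library as log2(CPM + 1), Zic2 and Zic5 had a Pearson r of 0.82, the second highest of 28 pairs after Pax6 and Zic4 (0.84). Zic1 and Zic4 had 0.67. The 7 pairs with Barhl2 had 0.08 to 0.39. Points from the same library share its depth and cells, so these are descriptions. By the same measure the genes most like Pax6 among 4718 candidates were Cd9 (0.96), B3galt2 (0.96) and Ptn (0.95), and the gene most like Zic5 was Carnmt1 (0.92). Ccnd2, the cyclin of dividing granule precursors, was the second most like Barhl1 (0.91, after Lap3 at 0.93) and the most like Tlx3 (0.88). Zbtb18 led for Zic1 (0.88), Peli2 for Zic2 (0.89), Epha3 for Zic4 (0.87) and Prpsap1 for Barhl2 (0.67).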

How the data were processed

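Cells sorted for tdTomato from 2 control and 2 En1/2 CKO libraries were analysed. Each deposited matrix holds raw UMI counts per gene and barcode, with no normalization. Per the submitters' processing notes, the authors used Cell Ranger 5.0.0 and mm10. The annotation and the strand setting are not given in the sources used here. Gene names and cell barcodes were taken as deposited, and 12546 cells passed the filters. Doublets were kept in the main analysis. UMI counts were summed per library and class, so that libraries and not cells are the replicates, and a class needed 20 cells in every library. The test was the quasi-likelihood F test of edgeR 4.0.16 in R 4.3.3 (TMM factors, filterByExpr, two-sided, Benjamini-Hochberg adjustment over all genes tested, threshold 0.05), and each SE was obtained by dividing the size of the estimate by the root of its F value. Comparisons between classes had the library as block, and those between genotypes no block. Animals were pooled, so p-values measure the spread between these libraries only. DESeq2 1.42.0 was an alternative. Scrublet scores (scanpy 1.11.5) ranked doublets for another, which dropped the highest-scoring 0.8% for every 1000 cells in the library. Shares of cells with a UMI are given before and after thinning each cell to 2000 UMIs. The fits were tested on simulated data. The genes named by rule were the 8 members, En1, En2, the class genes, listed genes called in a CKO fit (at most 6 per fit by size, with a mean of 10 CPM or more) and, for each member, the 3 genes with the highest r among those with 50 CPM or more in a class. Lhx2, Lhx9, Eomes, Otx2, Ntf3 and the other listed genes named between classes were chosen after their values were seen. The members and lists were chosen with earlier results of these data known.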

Additional observations from a re-analysis of the deposited data

How the results depend on the processing

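Of 822 values of single factors under an alternative, 716 kept their direction and their side of the threshold, 30 lost a call in the same direction, 19 gained one and 57 changed sign. Values given after the name of a factor are log2 differences. Sums over classes limit precision most in Gad-detected cells, with 50 to 87 cells a library, and for Barhl2 and Tlx3. Replicate numbers are shared between the groups, but same-numbered libraries deviated from their group means with correlations of -0.0635 to -0.308, so the number is not taken as a pairing. With it as a block, 0 of the 8 factors were called in each of the 5 classes. Gad-detected cells were too few (under 20 in a library) for the intact-cell and thinned-class alternatives, which were not run. The requirement of 3 Meis2 UMIs, and all alternatives of the comparison within Atoh1-detected cells, were chosen after seeing the data. Intact cells have 4000 or more UMIs and 5% or fewer mitochondrial UMIs, and thinned classes are drawn from cells reduced to 2000 UMIs. Where 1 library is left out of a group of 2, the lone one is assumed to vary like the other group. Except where an alternative tests fewer genes or libraries by construction, the cause of a change was not tested. In the CKO comparison of Atoh1-detected cells, the count of genes called was 3, and 23 with DESeq2, 171 without the low-count filter, 0 in intact cells, 1 in thinned classes and 2 (without CKO replicate 1) to 54 (without control replicate 1) with 1 library left out. Barhl2 was 0.089, and -0.031 in intact cells and -0.21 (without control replicate 1) to 0.35 (without control replicate 2) with 1 library left out. Pax6 was 0.16, and -0.0024 in thinned classes and -0.10 (without control replicate 2) to 0.56 (without control replicate 1) with 1 library left out. Zic1 was 0.28, and -0.024 (without CKO replicate 2) to 0.56 (without control replicate 1) with 1 library left out. Zic4 was 0.085, and -0.065 (without CKO replicate 2) to 0.23 (without CKO replicate 1) with 1 library left out. Tlx3 was -0.47, and -1.17 (without control replicate 2) to 1.85 (without control replicate 1) with 1 library left out. In the CKO comparison of Neurod1-only cells, the count of genes called was 2, and 109 with DESeq2, 334 without the low-count filter, 4 in intact cells, 5 with the replicate block and 3 (without control replicate 2) to 254 (without CKO replicate 1) with 1 library left out. Zic1 was 0.053, and -0.14 in intact cells and -0.27 (without CKO replicate 2) to 0.30 (without CKO replicate 1) with 1 library left out. Zic2 was 0.19, and -0.068 in intact cells. Tlx3 was 0.35, and -0.41 in thinned classes and -0.29 (without CKO replicate 2) to 1.46 (without control replicate 1) with 1 library left out. Pax6 was -0.022, and -0.11 (without CKO replicate 2) to 0.048 (without CKO replicate 1) with 1 library left out. In the CKO comparison of Neurod1-and-Meis2 cells, the count of genes called was 2, and 123 with DESeq2, 427 without the low-count filter, 1 in thinned classes, 0 with the replicate block and 12 (without control replicate 2) to 103 (without CKO replicate 2) with 1 library left out. The count among the 8 factors was 0, and 1 with DESeq2 and 1 without the low-count filter. Tlx3 was -1.16, and 0.52 in thinned classes and -2.09 (without control replicate 2) to 1.11 (without control replicate 1) with 1 library left out. In the CKO comparison of Meis2-only cells, the count of genes called was 2, and 16 with DESeq2, 117 without the low-count filter, 4 in intact cells, 29 in thinned classes, 1 with the replicate block, 16 at 3 or more Meis2 UMIs and 20 (without control replicate 2) to 140 (without CKO replicate 2) with 1 library left out. Tlx3 was 0.026, and -0.014 without the low-count filter and -1.11 (without control replicate 2) to 1.89 (without control replicate 1) with 1 library left out. Pax6 was 0.40, and -0.61 (without CKO replicate 2) to 1.00 (without CKO replicate 1) with 1 library left out. Barhl1 was 0.49, and -0.0066 (without CKO replicate 2) to 0.89 (without CKO replicate 1) with 1 library left out. In the CKO comparison of Gad-detected cells, the count of genes called was 27, and 7 with DESeq2, 135 without the low-count filter, 10 with doublets removed, 8 with the replicate block and 3 (without control replicate 2) to 191 (without control replicate 1) with 1 library left out. Pax6 was 0.49, and -0.14 (without CKO replicate 2) to 1.10 (without control replicate 1) with 1 library left out. In the comparison of Neurod1-only against Atoh1-detected cells, the count among the 8 factors was 3, and 7 in thinned classes. Barhl2 was 0.16, and -0.12 in thinned classes, -0.23 in the controls only and -0.049 (without CKO replicate 1) to 0.31 (without control replicate 2) with 1 library left out. Tlx3 was -0.24, and 0.35 in thinned classes and -0.49 (without CKO replicate 2) to 0.14 (without control replicate 1) with 1 library left out. The count of genes called was 5303, and 2994 in the controls only. In the comparison of Meis2-only against Neurod1-only cells, the count of genes called was 3019, and 1829 with DESeq2, 1090 in intact cells, 4821 in thinned classes, 1467 in the controls only and 1711 (without control replicate 1) to 3480 (without control replicate 2) with 1 library left out. Barhl2 was -0.51, and 0.12 in thinned classes. In the comparison of Gad-detected against Meis2-only cells, the count of genes called was 908, and 363 with DESeq2, 96 in the controls only and 113 (without CKO replicate 2) to 1946 (without control replicate 2) with 1 library left out. The count among the 8 factors was 2, and 1 with DESeq2, 1 with doublets removed, 0 in the controls only and 0 (without control replicate 1) to 5 (without control replicate 2) with 1 library left out. Zic2 was 0.092, and -0.0063 (without control replicate 1) to 0.25 (without control replicate 2) with 1 library left out. In the comparison of cycling against non-cycling Atoh1-detected cells, the count of genes called was 4295, and 2778 with DESeq2, 2029 in the controls only and 2665 (without CKO replicate 1) to 4594 (without control replicate 2) with 1 library left out. The count among the 8 factors was 2, and 0 with DESeq2, 4 without the low-count filter, 1 in intact cells, 1 in the controls only and 0 (without control replicate 1) to 3 (without CKO replicate 2) with 1 library left out. Zic2 was -0.0094, and 0.015 without the low-count filter and -0.029 (without CKO replicate 1) to 0.035 (without control replicate 1) with 1 library left out. Barhl1 was 0.12, and -0.0040 in intact cells. Barhl2 was 0.14, and -0.040 in intact cells and -0.037 (without CKO replicate 2) to 0.31 (without CKO replicate 1) with 1 library left out. Tlx3 was -0.18, and 0.18 in the controls only. In the comparison of Atoh1-with-Neurod1 against Atoh1-without-Neurod1 cells, the count of genes called was 1243, and 615 with DESeq2, 441 in thinned classes, 375 in the controls only and 487 (without CKO replicate 1) to 1250 (without control replicate 2) with 1 library left out. Barhl1 was 0.052, and -0.012 in intact cells and -0.0046 in the controls only. The count among the 8 factors was 3, and 1 in the controls only and 1 (without CKO replicate 1) to 4 (without control replicate 2) with 1 library left out. In the test of the difference of the CKO effect between Meis2-only and Neurod1-only cells, the count of genes called was 24, and 4 with DESeq2, 68 without the low-count filter, 1 in intact cells and 5 (without control replicate 2) to 112 (without control replicate 1) with 1 library left out. Zic5 was -0.0045, and 0.38 in intact cells, 0.51 in thinned classes, 0.18 at 3 or more Meis2 UMIs and -0.29 (without control replicate 2) to 0.28 (without control replicate 1) with 1 library left out. Barhl1 was -0.11, and 0.34 in intact cells, 0.51 in thinned classes and -0.57 (without CKO replicate 2) to 0.30 (without CKO replicate 1) with 1 library left out. Tlx3 was -0.57, and 0.47 in intact cells, 0.96 in thinned classes, 0.97 at 3 or more Meis2 UMIs and -0.99 (without control replicate 2) to 0.54 (without control replicate 1) with 1 library left out. Pax6 was 0.26, and -0.51 (without CKO replicate 2) to 0.94 (without CKO replicate 1) with 1 library left out. Barhl2 was 0.93, and -0.30 (without control replicate 1) to 2.33 (without control replicate 2) with 1 library left out.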
